A study of Mus musculus with 35 samples.

Results

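The libraries described here come from bone marrow-derived macrophages (BMDMs), primary cells grown from mouse marrow in medium conditioned by L929 cells, and ask what dexamethasone (Dex, a synthetic glucocorticoid) does to them when no inflammatory stimulus is present. The members were taken by their labels: every library of genotype WT treated with vehicle (DMSO) or with 100 nM Dex and nothing else, 3 of each, which is 6 of the 35 libraries of the series. They were described across the 11367 of 47069 gene identifiers with a mean of at least 1 FPKM (fragments counted on a gene, scaled to its length and to the size of the library) over these 6 libraries. All mice were C57BL/6, and all cells were exposed for 24 h. The rest of the series adds lipopolysaccharide (LPS, 100 ng/ml), DAMPs (damage-associated molecules, 1 µg/ml), either of them with Dex, and the same treatments of cells labelled AMPKa1-/-. The labels give neither age nor sex. The study's methods describe cultures from individual mice of both sexes, but the labels do not tie a library to a mouse, so the p-values measure the spread between these libraries.

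Glucocorticoids cross the cell membrane and bind the glucocorticoid receptor (GR, encoded by Nr3c1), a transcription factor that is held in the cytoplasm by heat shock protein chaperones until hormone arrives. In the nucleus GR binds DNA as a dimer and raises genes near its sites, and it also lowers genes driven by NF-kB, AP-1 and interferon-activated factors. In macrophages these actions are known for damping cytokine production and for raising genes of scavenging and clearance.

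Library totals read from the FPKM steps of weak genes were 18389603, 16805391 and 19973568 fragments for vehicle replicates 1 to 3 and 15942581, 18532646 and 18899907 for Dex replicates 1 to 3. One fragment on a gene of 1 kb was thus worth 0.0501 to 0.0627 FPKM, and less on a longer gene. Across genes, log2(FPKM + 1) correlated (Pearson) at 0.982 to 0.992 among vehicle libraries and 0.983 to 0.986 among Dex libraries, against 0.923 to 0.952 between the groups. In these 6 libraries the first principal component held 71.7% of the variance and placed the vehicle libraries at −30.7, −39.9 and −30.5 and the Dex libraries at 34.4, 39.5 and 27.2. The second, with 11.3%, set vehicle replicate 2 (−23.9) apart from vehicle replicates 1 (13.5) and 3 (15.2). The count of calls, several list medians and some named genes are given without this library too.

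The cells carried the RNA of macrophages in both groups. All 12 listed macrophage markers were tested, and Lyz2 (lysozyme) led all genes with 17922, 23014 and 18030.0 FPKM with vehicle and 20418, 16768 and 20238 FPKM with Dex, in replicate order 1 to 3 as everywhere below. Of the other macrophage markers, Csf1r, the receptor of the growth factor these cells depend on, had 543, 675 and 514 FPKM with vehicle and 488, 556 and 576 FPKM with Dex, and neither gene was called. Over the list 2 markers were called higher and 4 lower (50%, against 24.6% of all genes), as described with the resolving markers below. The median was −0.36. Markers of other cells were far below these levels. No B cell, mast cell or erythroid marker reached a mean of 1 FPKM, and Pax5, Ly6g and Retnlg were at 0 in all 6 libraries. The 7 stromal markers, 3 of them tested and led by Col1a2, summed to 18.6, 1.52 and 10.1 FPKM with vehicle and 12.3, 15.4 and 25.1 FPKM with Dex, and the 12 neutrophil markers, 4 tested and led by Mmp8, summed to 41.9, 6.58 and 22.2 FPKM against 37.2, 19.9 and 30.4 FPKM. Vehicle replicate 2 was the lowest library for both sums. The 6 osteoclast markers, 3 tested and led by Acp5, summed to 47.9, 27.0 and 38.6 FPKM with vehicle and 92.7, 64.4 and 65.7 FPKM with Dex. That rise was the rise of Acp5, with 11.2, 13.2 and 11.1 FPKM with vehicle and 79.2, 53.8 and 53.2 FPKM with Dex, since Ctsk had 14.2, 6.30 and 15.7 FPKM with vehicle and 13.3, 10.4 and 12.4 FPKM with Dex, Dcstamp fell (−3.54), and Calcr, Ocstamp and Oscar were at or near 0. Endothelial markers (led by Vwf) summed to 24.7, 19.2 and 38.0 FPKM against 12.1, 21.5 and 16.4 FPKM and T and NK cell markers (led by Cd4, Ncr1 at 0) to 18.1, 16.0 and 15.9 FPKM against 16.1, 8.59 and 7.09 FPKM. Their part in the results below was not tested. In bulk RNA, fewer cells of a type and less RNA per cell cannot be told apart.

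Dex changed a large part of the transcriptome. On log2(FPKM + 1), the scale of every fold change below, limma called 2792 of the 11367 genes at an adjusted p under 0.05, 24.6% of all genes tested, with 1334 higher (11.7%) and 1458 lower (12.8%). Over all 11367 genes the median difference was 0.06, and a gene called higher or lower had changed by a median of 0.77 or −0.77. A change of at least 1 was reached by 405 genes that rose and 455 that fell, and a change of at least 3 by 34 and 18. The 3 Dex libraries lay entirely above the 3 vehicle libraries for 28.6% of genes and entirely below for 21.7%. The count of calls depended on single libraries: 1680 genes were called without Dex replicate 2 and 1818 without vehicle replicate 2, while a fit of vehicle and Dex alone without vehicle replicate 2 called 3128. In the fit without vehicle replicate 2 and the LPS libraries, the list medians given below became −0.14 for the clock, 0.54 for the KLF and C/EBP factors, 0.07 for hypoxia and −0.38 for the cell cycle.

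**Figure D1:**
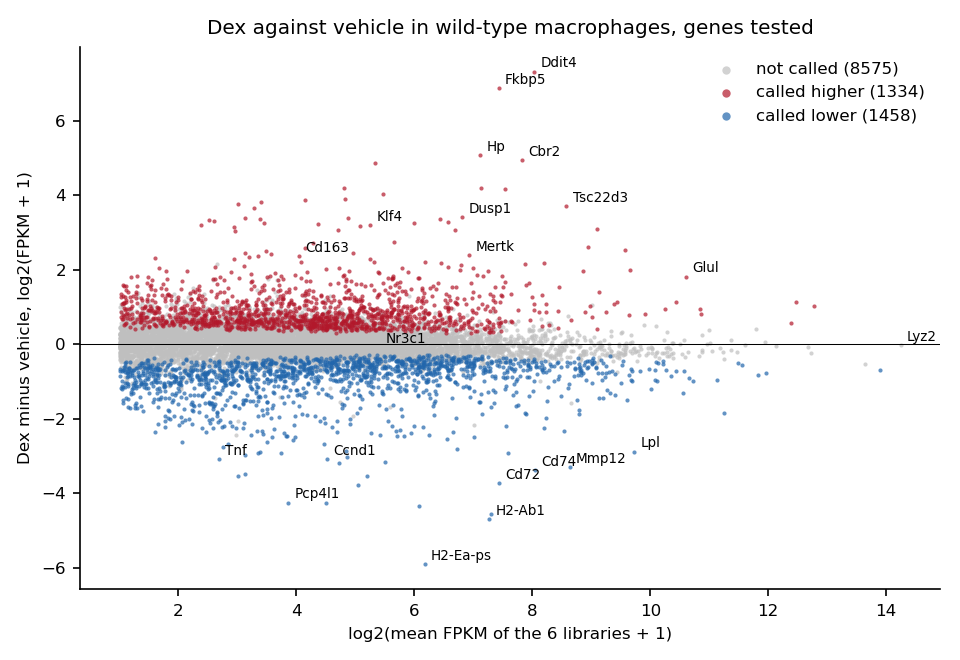
Each point is a gene tested in wild-type BMDMs. The x axis gives log2 of the mean FPKM of the 6 libraries plus 1, and the y axis the Dex minus vehicle difference in log2(FPKM + 1). Red points were called higher (1334), blue points lower (1458) and grey points not called (8575). Ddit4 and Fkbp5 stand highest and H2-Ea-ps lowest.

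The strongest rises were those of textbook GR targets. Ddit4 (ENSMUSG00000020108, chromosome 10 from 59949669 to 59951834, GRCm38), an inhibitor of mTORC1 signalling also known as REDD1, had 2.19, 1.94 and 2.70 FPKM with vehicle and 464, 528 and 569.8 FPKM with Dex (log2 fold change 7.31, standard error 0.26, adjusted p = 3.3e-08). Fkbp5 (ENSMUSG00000024222, chromosome 17 from 28399094 to 28517527), the co-chaperone that lowers the hormone affinity of GR, had 1.60, 1.91 and 2.23 FPKM with vehicle and 321, 355 and 346 FPKM with Dex (log2 fold change 6.88, standard error 0.16, adjusted p = 9.4e-10). For both genes the groups were far apart and the replicates close together.

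Of 28 classic glucocorticoid targets, 25 reached the expression filter. Of these, 15 were called higher and 4 lower, and their median log2 fold change was 1.04, against 24.6% called and a median of 0.06 over all genes. Tsc22d3 (ENSMUSG00000031431, chromosome X from 140539528 to 140600659), which encodes the anti-inflammatory leucine zipper protein GILZ, had 54.3, 51.7 and 54.6 FPKM with vehicle and 724, 667 and 736 FPKM with Dex (log2 fold change 3.70, standard error 0.12, adjusted p = 1.8e-08). Dusp1, the phosphatase that switches off p38 and JNK, had 22.3, 15.8 and 16.6 FPKM with vehicle and 229, 175 and 207 FPKM with Dex (log2 fold change 3.42, standard error 0.16, adjusted p = 3.0e-07). No Dex library of either gene came near a vehicle library. Tns1 (tensin 1, 4.16), the transcription factors Zbtb16 (3.81) and Klf9 (3.22), the metallothionein Mt2 (2.04) and Glul (glutamine synthetase, 1.81) rose as well. Hif3a, a hypoxia-inducible factor that can restrain HIF1α, was listed at 0 in vehicle replicates 1 and 3 and at 0.0252 FPKM in vehicle replicate 2, and had 8.93, 12.8 and 6.52 FPKM with Dex. It was called higher, and its fitted fold change, 3.32 with a pseudocount of 1 and 6.41 with 0.1, gives no firm size. Smaller rises came from Cebpb (1.16), Sgk1 (1.04, adjusted p = 0.029), Snx30 (1.04) and Nfkbia, the inhibitor of NF-kB (0.68). Sgk1 lost its call without any of vehicle replicates 1 to 3, Dex replicate 1 or Dex replicate 3, at log2 fold changes of 0.83 to 1.11, and Snx30 without Dex replicate 1 (0.99), Dex replicate 2 (0.97) or vehicle replicate 2 (0.91).

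**Figure D2:**
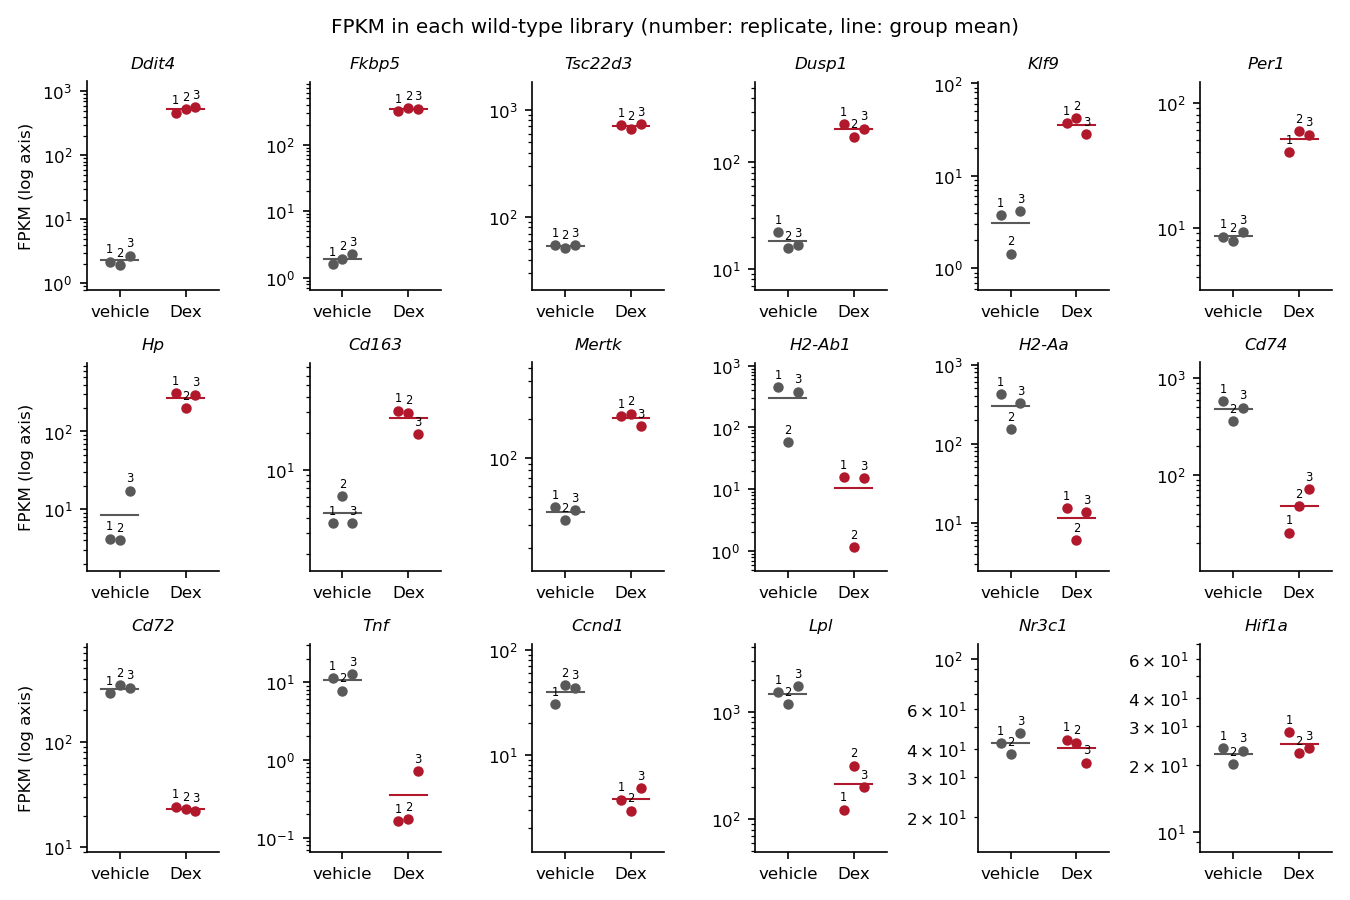
FPKM of 18 genes in each of the 6 wild-type libraries, on log axes that differ between panels. Points are single libraries numbered by replicate, grey for vehicle and red for Dex, and lines are group means. Nr3c1 and Hif1a are the only panels in which the groups overlap, and vehicle replicate 2 is low for H2-Ab1 and H2-Aa.

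Some genes often counted as glucocorticoid targets fell or did not pass. Anxa1 (annexin A1, a mediator of resolution) fell from 2281, 1526 and 2656 FPKM to 961, 739 and 839.9 FPKM (log2 fold change −1.32, standard error 0.21, adjusted p = 9.7e-04). Tgm2 (transglutaminase 2, −2.19), Rgs2 (a regulator of G protein signalling, −1.29) and the stress gene Sesn1 (−0.97) fell too, each with no overlap between the groups. Mt1 (0.75, adjusted p = 0.056), Lcn2 (0.90, 0.17), Cebpd (0.38, 0.12), Zfp36 (0.23, 0.52), Errfi1 (0.29, 0.21) and Cdkn1a (0.16, 0.45) were not called. Mt1 was called under the replicate block, with only the groups compared, with quantile normalization (0.95), with the exon-length trend removed (0.85), without LPS + Dex replicate 1 or 3, and without vehicle replicate 2 and the LPS libraries (0.86). Cebpd was called without Dex replicate 2 and Lcn2 without vehicle replicate 3. The spread for Lcn2, a siderophore-binding acute-phase protein, was wide, with 2.29, 5.21 and 12.4 FPKM with vehicle and 11.9, 6.35 and 17.7 FPKM with Dex.

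The receptor gene itself was not called, with 42.5, 37.9 and 46.9 FPKM with vehicle and 43.8, 42.5 and 34.7 FPKM with Dex for Nr3c1 (log2 fold change −0.07, standard error 0.24, adjusted p = 0.84). Among 16 tested genes of the receptor, its chaperones and its coregulators, 3 were called higher and 3 lower (37.5%, against 24.6% of all genes), with a median of −0.04. The chaperone Hsp90aa1 fell (log2 fold change −0.86, standard error 0.14, adjusted p = 0.0014), and so did the co-chaperones Stip1 (−0.55) and St13 (−0.38, not called without vehicle replicate 1 or 3, any 1 Dex library or either LPS library, at −0.32 to −0.40, and −0.68 with the exon-length trend removed). The coactivators Ncoa1 (1.48) and Ncoa2 (0.88, adjusted p = 0.045) and the phosphatase Ppp5c (0.61) rose. Ncoa2 is a long gene, its change was 0.48 once the trend with exon length described below was removed, and it was no longer called when any single one of the 6 vehicle and Dex libraries was left out (0.79 to 1.02).

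Beyond the classic list, several rises were as large. Hp (haptoglobin, an acute-phase protein that captures free haemoglobin) had 4.21, 3.99 and 17.3 FPKM with vehicle and 308, 197 and 298 FPKM with Dex (log2 fold change 5.08, standard error 0.43, adjusted p = 1.6e-05), with vehicle replicate 3 above the other vehicle libraries. Cbr2 (a carbonyl reductase) had 5.60, 26.1 and 14.2 FPKM with vehicle and 337, 522 and 443 FPKM with Dex (log2 fold change 4.94, standard error 0.49, adjusted p = 4.4e-05). Jaml, a junctional adhesion molecule of leukocytes, had 1.06, 2.66 and 1.45 FPKM with vehicle and 69.7, 96.2 and 64.8 FPKM with Dex (log2 fold change 4.86, standard error 0.32, adjusted p = 3.5e-06). In each of these genes every Dex library lay far above every vehicle library. The kinase Map3k6 (4.20), the sulfotransferase Sult1a1 (4.18), the matrix protein Adamtsl4 (4.02), the actin-capping protein Tmod1 (3.91) and the sialyltransferase St6galnac2 (3.86) complete, with Ddit4, Fkbp5, Tns1 and Zbtb16, the 12 largest rises among genes with an established symbol.

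The Krüppel-like (KLF) and C/EBP families, transcription factors that steer myeloid differentiation, held 9 genes called higher and none called lower among 16 tested, with a median of 0.58 against 11.7% of all genes called higher. Klf4 went from 4.66, 7.12 and 7.32 FPKM to 54.5, 91.9 and 56.7 FPKM (log2 fold change 3.20, standard error 0.22, adjusted p = 4.2e-06) and Klf9 from 3.77, 1.44 and 4.14 FPKM to 37.4, 42.0 and 28.3 FPKM (log2 fold change 3.22, standard error 0.36, adjusted p = 1.0e-04). Klf13 (1.99) and Cebpb (1.16) followed, then Klf3, Klf6, Klf11, Cebpg and Cebpz with 0.48 to 0.90. Cebpz was not called without vehicle replicate 2 or 3, Dex replicate 1 or 2, LPS replicate 2 or 3 or LPS + Dex replicate 2 (0.40 to 0.48), nor Klf6 without Dex replicate 1 (0.74), and Klf3 was 0.57 with the exon-length trend removed. Klf2 (0.33) and Cebpa (−0.23) were not called.

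Clock genes moved in both directions. Glucocorticoids are a known timing signal for peripheral clocks, in which Clock and Arntl (BMAL1) activate the Per, Cry, Dbp and Nr1d genes. Of 19 clock genes tested, 5 were called higher and 5 lower (52.6%, against 24.6% of all genes), and the median was −0.19 (0.15 among those with a mean of at least 5 FPKM). Per1, a direct GR target, had 8.45, 7.87 and 9.22 FPKM with vehicle and 39.9, 58.9 and 55.3 FPKM with Dex (log2 fold change 2.44, standard error 0.16, adjusted p = 3.5e-06). Arntl (4.94, 5.04 and 4.48 against 14.4, 15.4 and 15 FPKM, 1.45), the repressor Nfil3 (1.76), Rora (1.20) and Clock (1.12) rose. Dbp, an output gene of the clock, fell from 16.7, 27.1 and 24.2 FPKM to 2.75, 1.69 and 1.84 FPKM (log2 fold change −2.93, standard error 0.21, adjusted p = 5.1e-06), and the repressors Bhlhe40 (−2.35) and Bhlhe41 (−1.67), Tef (−1.33) and Per3 (−1.55) fell with it. In these 10 genes the groups did not overlap. Over all genes tested, the Dex libraries lay entirely above the vehicle libraries for 28.6% and entirely below for 21.7%. The groups did not overlap in Per2, Cry1, Cry2 and Csnk1d either, though none of these was called. Per2 (−0.54, adjusted p = 0.087), Cry2 (−0.41, 0.093), Cry1 (−0.36, 0.19) and Nr1d2 (−0.34, 0.11) were not called, and Nr1d1, Npas2, Ciart, Csnk1d and Csnk1e lay between −0.19 and 0.15. Centring on one median, quantile normalization and removal of the exon-length trend each added Per2, Cry2 and Nr1d2 to the calls, and Nr1d2 was also called without vehicle replicate 2 (−0.48). Clock lost its call without Dex replicate 1 (1.06), Dex replicate 2 (0.99), vehicle replicate 2 (0.97) or vehicle replicate 3 (1.17), and fell to 0.74 when the trend with exon length was removed.

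The largest falls were those of class II antigen presentation, the genes by which macrophages display peptides to CD4+ T cells. Of 14 listed genes 13 were tested, all 13 had a negative fold change, 9 were called lower and none higher, and the median was −1.94, against 12.8% of all genes called lower. The promoters of classical class II genes are known to share an X box and a Y box bound by RFX and NF-Y, on which the coactivator CIITA assembles. The 150 bases before the start of H2-Aa (chr17:34287824-34287973, minus strand), H2-Eb1 (chr17:34305717-34305866, plus strand) and H2-DMb1 (chr17:34153041-34153190, plus strand), from RefSeq's promoter table for GRCm38, show these letters. Capitals mark TGATTGG (the Y box core) and AACNGATG (letters of the X box), both searched on both strands.
H2-Aa: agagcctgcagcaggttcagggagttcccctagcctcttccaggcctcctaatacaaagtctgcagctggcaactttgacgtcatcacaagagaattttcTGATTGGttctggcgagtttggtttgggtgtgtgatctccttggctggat
H2-Eb1: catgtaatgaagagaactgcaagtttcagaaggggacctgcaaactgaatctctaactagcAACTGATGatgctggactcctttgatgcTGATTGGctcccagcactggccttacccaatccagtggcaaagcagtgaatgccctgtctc
H2-DMb1: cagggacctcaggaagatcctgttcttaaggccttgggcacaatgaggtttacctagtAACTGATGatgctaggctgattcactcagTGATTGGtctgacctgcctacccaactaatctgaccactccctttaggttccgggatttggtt
Within 250 bases before to 50 after the start, TGATTGG was found in 10.8% and AACNGATG in 1.58% of the 8598 genes tested that have a window, and both in 20 genes, H2-Eb1 and H2-DMb1 among them. In H2-Eb1 and H2-DMb1 the X box letters begin 89 and 92 bases and the Y box letters 61 and 63 bases before the start. H2-Aa holds only the Y box letters, 50 bases before its start, and the window of H2-DMa holds neither.

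Each class II chain fell many-fold. H2-Aa had 425, 151 and 327 FPKM with vehicle and 15.1, 6.01 and 13.5 FPKM with Dex (log2 fold change −4.56, standard error 0.69, adjusted p = 8.5e-04), H2-Eb1 had 204, 36.7 and 147 FPKM with vehicle and 5.46, 2.23 and 5.59 FPKM with Dex (log2 fold change −4.34, standard error 0.71, adjusted p = 0.0013), and H2-Ab1 (ENSMUSG00000073421, chromosome 17 from 34257689 to 34269419) had 451, 57.2 and 381 FPKM with vehicle and 15.6, 1.17 and 15 FPKM with Dex (log2 fold change −4.70, standard error 1.02, adjusted p = 0.0071). Vehicle replicate 2 was the lowest vehicle library for all 3 chains and Dex replicate 2 the lowest Dex library, yet no Dex library reached a vehicle library. Cd74, the invariant chain that guides class II molecules, had 581, 363 and 499 FPKM with vehicle and 25.6, 48.0 and 72.1 FPKM with Dex (log2 fold change −3.37, standard error 0.45, adjusted p = 3.6e-04). H2-DMa, which helps to load peptide (−3.03), and Ciita itself (6.47, 4.01 and 8.05 FPKM with vehicle and 0.0955, 0.144 and 0.161 FPKM with Dex, −2.62, and −4.70 with a pseudocount of 0.1) fell too. H2-DMb1 had 60.3, 24.0 and 56.8 FPKM with vehicle and 22.7, 3.96 and 12.3 FPKM with Dex. It was not called (−1.94, adjusted p = 0.082), except under the replicate block, with only the groups compared, and without vehicle replicate 2 and the LPS libraries (−2.36). Costimulatory Cd40 (−1.25) and the inhibitory ligand Cd274 (PD-L1, −1.11) fell, whereas Cd80 (−0.25) and Cd86 (−0.24) were not called. H2-Ea-ps, listed as a polymorphic pseudogene, gave the lowest fold change of all genes (151, 159.8 and 112 FPKM with vehicle and 0.0914, 3.38 and 1.62 FPKM with Dex, log2 fold change −5.91, standard error 0.47, adjusted p = 1.0e-05), and how reads shared with other class II genes were assigned is not given in the sources used here. Other cells also present antigen on class II. The 8 dendritic cell markers, of which 1 was tested (Clec10a), summed to 13.5, 19.7 and 14.8 FPKM with vehicle and 14.8, 30.3 and 32.9 FPKM with Dex, with Cd209a at 0. The 6 B cell markers summed to between 0.533 and 1.95 FPKM. The part of such cells in these falls was not tested. Without vehicle replicate 2 and the LPS libraries, 10 of the 13 genes were called lower, with a median of −2.36.

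Of 36 interferon-stimulated genes, all tested, 27 were called lower and none higher without any stimulus having been given, 75% against the 12.8% of all genes called lower. The median was −0.90, 3 members had a positive fold change, and 18 to 27 were called lower over the alternatives. Ifit3, an antiviral RNA-binding protein, had 7.70, 12.2 and 14.5 FPKM with vehicle and 1.19, 1.08 and 0.485 FPKM with Dex (log2 fold change −2.68, standard error 0.23, adjusted p = 1.7e-05). Further falls were those of Ifi44 (−2.16), Ifit2 (−2.09), Gbp3 (−2.04), Isg15 (−1.52), Mx1 (−1.41) and Irf7 (−1.22), where Irf7 is a transcription factor that sustains interferon responses. Irf7 was not called without vehicle replicate 2 (−1.02) or 3 (−1.23) or Dex replicate 2 (−1.18) or 3 (−1.14). Close copies within the Ifit, Oas and Mx families may share reads. Ifih1 (0.10), Stat2 (−0.15) and Ifitm3 (−0.22) were among the 9 not called. The receptor subunit Ifngr1 went the other way, from 338, 353 and 278 FPKM to 1299.6, 1231 and 1332 FPKM (log2 fold change 2.0, standard error 0.16, adjusted p = 1.3e-05), while Ifnar1 fell (−0.71).

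Of 30 inflammatory mediators 15 did not reach the filter, Il6, Il12b, Ptgs2 and Nos2 among them. Of the 15 tested, 5 were called lower and none higher (33.3%, against 12.8% of all genes called lower and 24.6% called in either direction), with a median of −0.66 and 2 to 8 lower over the alternatives. Tnf had 11.2, 7.75 and 12.5 FPKM with vehicle and 0.162, 0.174 and 0.716 FPKM with Dex (log2 fold change −3.09, standard error 0.23, adjusted p = 5.6e-06, and a fold change of −4.74 with a pseudocount of 0.1), and Dex replicate 3 was the highest Dex library. Il1b had 3.77, 5.67 and 5.45 FPKM with vehicle and 0.311, 0.134 and 1.51 FPKM with Dex (log2 fold change −1.93, standard error 0.60, adjusted p = 0.037, and −3.22 with a pseudocount of 0.1), a call that was lost when any single vehicle or Dex library other than Dex replicate 3, or either LPS library, was left out (−1.70 to −2.08). The chemokine Cxcl16 (−1.26), Tnfsf9 (−0.90) and the inflammasome sensor Nlrp3 (−0.50) fell. Nlrp3 was not called when any single vehicle, Dex or LPS library was left out (−0.43 to −0.57), nor Tnfsf9 without vehicle replicate 2 (−0.72) or Dex replicate 2 (−0.76). Ccl4, with 14.4, 8.29 and 13.6 FPKM with vehicle and 2.47, 1.80 and 2.0 FPKM with Dex, did not overlap between the groups but was not called (−2.05, adjusted p = 0.061), though it was called under the replicate block, with quantile normalization, with only the groups compared, without LPS + Dex replicate 2 or 3, and without vehicle replicate 2 and the LPS libraries (−2.28). In the NF-kB and Toll-like receptor list, 3 of 28 genes were called higher and 5 lower, a share of 28.6% that is close to the 24.6% of all genes. Tlr1 fell (−2.47) with the inhibitor gene Nfkbie (−1.56) and with Nfkbiz (−0.91). Tlr7 rose from 85.8, 89.1 and 76.6 FPKM to 291, 256 and 192 FPKM (1.52). Of 13 phosphatase and mRNA decay genes, Dusp1 and Zfp36l1 (0.99, not called without Dex replicate 1 or 3 or vehicle replicate 1, at 0.90 to 1.00) rose, Dusp4 (−1.32, and −2.12 with a pseudocount of 0.1) and Dusp6 (−1.31) fell, and in all 3 were called higher and 2 lower (38.5%).

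Among chemokine and growth factor receptors, 9 of 21 were called lower and 3 higher, against 12.8% and 11.7% of all genes. Ccr2, the receptor that draws monocytes from the blood, fell from 9.49, 4.46 and 9.29 FPKM to 0.745, 0.717 and 0.838 FPKM (−2.25), and Cx3cr1 (−2.23) fell with it. The high-affinity IgG receptor Fcgr1 (CD64) fell from 72.7, 103 and 66.2 FPKM to 10.8, 7.00 and 6.47 FPKM (log2 fold change −3.17, standard error 0.25, adjusted p = 1.1e-05) and its signalling chain Fcer1g by less (−0.99), but the neonatal receptor Fcgrt rose (1.26). Fcgrt lost that call without vehicle replicate 1 (1.17), vehicle replicate 3 (0.96) or Dex replicate 2 (1.18). The B cell coreceptor gene Cd72, which macrophages also express, had 293, 345 and 327 FPKM with vehicle and 24.3, 23.1 and 22.4 FPKM with Dex (log2 fold change −3.73, standard error 0.10, adjusted p = 3.2e-09), one of the tightest separations in the data.

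Markers of resolving macrophages did not move as 1 group. Of 19 tested, 3 were called higher and 8 lower, 57.9% against 24.6% of all genes, with a median of −0.52. Cd163, the scavenger receptor for haemoglobin and haptoglobin, had 3.63, 6.03 and 3.60 FPKM with vehicle and 30.8, 29.6 and 19.8 FPKM with Dex (log2 fold change 2.36, standard error 0.32, adjusted p = 4.1e-04). Chil3 (Ym1), listed at 0 in vehicle replicate 2, had 6.69, 0 and 0.869 FPKM with vehicle and 12.7, 8.75 and 11.3 FPKM with Dex and rose (2.28, and 3.65 with a pseudocount of 0.1), but was not called without vehicle replicate 2 (1.64), vehicle replicate 3 (2.09) or Dex replicate 1 (2.17). Stab1 rose as well (0.95). The lipid scavenger Cd36 fell from 655, 322 and 492 FPKM to 92.1, 99.4 and 103 FPKM (−2.25), the beta-glucan receptor Clec7a fell (−2.54), and so did the cytokine antagonist Il1rn (−2.49) and Il10 (−1.35). Among clearance genes, 3 of 20 were called higher and 6 lower, 45% in all. Mertk, which recognises dying cells through bridging proteins, had 41.4, 32.8 and 39.2 FPKM with vehicle and 212, 221 and 178 FPKM with Dex (log2 fold change 2.40, standard error 0.18, adjusted p = 6.4e-06), whereas its relative Axl fell from 68.9, 47.9 and 33.3 FPKM to 19.4, 16.8 and 14.1 FPKM (−1.47) and the bridging ligand Gas6 fell (−0.72, not called when any single vehicle library, Dex replicate 1 or 2 or an LPS library was left out, at −0.56 to −0.83). Of the 12 macrophage markers 2 were called higher, Mertk among them, and 4 lower (Fcgr1, Aif1 −2.82, Itgam −2.38 and Cd68 −0.70). Cd68 was not called without vehicle replicate 2 (−0.60) or 3 (−0.70) or Dex replicate 1 (−0.55) or 2 (−0.75).

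Secreted proteases and coagulation genes separated by member. Plau, the urokinase that activates plasminogen, fell from 57.4, 48.6 and 75.3 FPKM to 2.65, 3.22 and 4.58 FPKM (log2 fold change −3.78, standard error 0.21, adjusted p = 9.9e-07), and Procr (−1.91) fell, while F13a1, the clot-stabilising factor, rose from 94.2, 96.0 and 127 FPKM to 445, 495 and 489.8 FPKM (2.18) and the complement inhibitor Cd55 rose (2.42). Of 16 complement and coagulation genes 4 were called higher and 4 lower (50%, against 24.6% of all genes). The elastase Mmp12 had 1058, 244 and 885 FPKM with vehicle and 80.0, 43.5 and 65.9 FPKM with Dex (log2 fold change −3.30, standard error 0.51, adjusted p = 9.1e-04), with vehicle replicate 2 lowest among the vehicle libraries, and Mmp9 (−2.06) and Mmp13 (−1.63) fell too. Of 17 matrix genes 6 rose, Mmp8 among them (1.32), and 4 fell (58.8%, against the same 24.6%), but the list's median of 0.10 became −0.32 without vehicle replicate 2 and the LPS libraries. Mmp8 lost its call without vehicle replicate 2 (0.93), Dex replicate 1 (1.12) or Dex replicate 3 (1.32). It is also the leading neutrophil marker, whose summed list was lowest in vehicle replicate 2, and the part of other cells in its change was not tested. Dcstamp, the fusion receptor of osteoclasts and giant cells, fell from 22.5, 7.52 and 11.8 FPKM to 0.189, 0.217 and 0.133 FPKM (−3.54, and −5.52 with a pseudocount of 0.1), but the acid phosphatase Acp5, also an osteoclast marker, rose from 11.2, 13.2 and 11.1 FPKM to 79.2, 53.8 and 53.2 FPKM (2.28). The remaining largest falls were those of Pcp4l1 (−4.25), Egr2 (−4.25), Gpr162 (−3.54) and Il21r (−3.49), of which Egr2 is a transcription factor induced by growth factors and Il21r a cytokine receptor.

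Of 37 cell cycle genes, 13 were called lower and 2 higher, against 12.8% and 11.7% of all genes, and the median was −0.47. Ccnd1, the cyclin that couples growth factors to entry into the cycle, had 30.4, 46.3 and 43.7 FPKM with vehicle and 3.72, 2.92 and 4.83 FPKM with Dex (log2 fold change −3.09, standard error 0.27, adjusted p = 1.9e-05). Pcna, the clamp of DNA polymerase, had 502, 408 and 531 FPKM with vehicle and 125, 111 and 128 FPKM with Dex (log2 fold change −1.97, standard error 0.13, adjusted p = 3.6e-06), and the replication genes Mcm5 (−1.67), Rrm2 (−1.59) and Tk1 (−1.32) fell. The genes called higher were the inhibitor Cdkn1b (0.73, not called without vehicle replicate 2 at 0.61) and Ccnd3 (0.91). Mitotic genes such as Mki67 (−0.45, adjusted p = 0.18) and Ccnb1 (−0.46, 0.29) had negative fold changes and were not called, Mki67 except with the exon-length trend removed (−0.74). The count of genes called lower ranged from 6 to 19 over the alternatives.

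**Figure D3:**
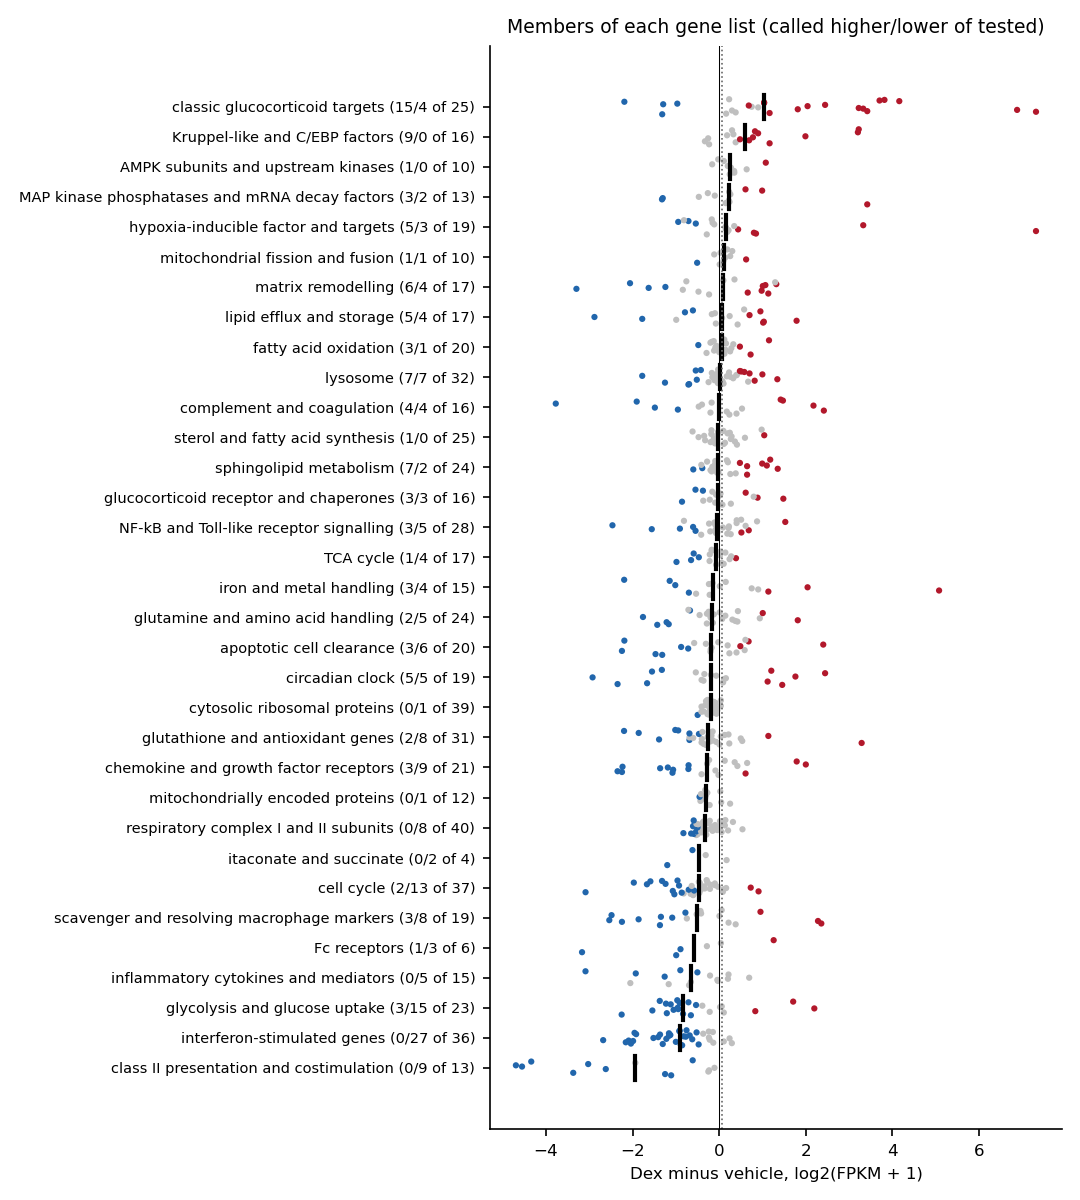
Dex minus vehicle differences in log2(FPKM + 1) of the tested members of each gene list, red where called higher, blue where called lower and grey where not called. Black bars are list medians, the dotted line is the median of all genes tested (0.06), and the figures in brackets are the members called higher and lower of those tested. Class II presentation, interferon-stimulated genes and glycolysis lie farthest to the left, classic glucocorticoid targets and the KLF and C/EBP factors farthest to the right.

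Glycolysis was the metabolic list with the most calls. Of 23 genes tested, 15 were called lower and 3 higher, against 12.8% and 11.7% of all genes, and the median was −0.84, with counts of 12 to 16 lower over the alternatives. Enzymes of the lower pathway fell together: Gapdh from 1253, 1569 and 1494 FPKM to 609, 566 and 686 FPKM (−1.21), Ldha, which makes lactate, from 619, 712 and 758 FPKM to 367, 283 and 357 FPKM (−1.06), and likewise Pkm (−1.23), Pgk1 (−1.12), Tpi1 (−0.97) and Eno1 (−0.84). Aldoc (log2 fold change −2.25, standard error 0.24, adjusted p = 8.4e-05), the hexokinase Hk3 (−1.54) and the glucose transporter Slc2a1 (−0.71) fell also. Pfkfb3, whose product makes the activator of phosphofructokinase, rose from 27.7, 21.4 and 25.9 FPKM to 122, 107 and 124 FPKM (log2 fold change 2.2, standard error 0.23, adjusted p = 7.6e-05), with Hk2 (0.83) and the transporter Slc2a3 (1.71). Slc2a1 was not called without vehicle replicate 1 (−0.68) or 3 (−0.54) or Dex replicate 1 (−0.64) or 2 (−0.68), nor Hk2 without vehicle replicate 2 (0.71) or Dex replicate 2 (0.73). Slc2a3 was not called without Dex replicate 2 (1.65) or vehicle replicate 3 (1.54). Hif1a, the hypoxia factor that drives many of these enzymes, had 23.8, 20.2 and 23.2 FPKM with vehicle and 28.1, 22.6 and 23.8 FPKM with Dex (log2 fold change 0.14, standard error 0.17, adjusted p = 0.55). Among 19 tested genes of the hypoxia list, which shares Slc2a1 and Pdk1 with glycolysis, 5 were called higher and 3 lower (42.1%, against 24.6% of all genes), with a median of 0.15. Ddit4 and Hif3a are also classic glucocorticoid targets, and the median was 0.01 with the exon-length trend removed and 0.06 with libraries centred on one median. Arnt, the partner of HIF1α, rose (0.85), and the pyruvate dehydrogenase kinase Pdk1 fell (−0.95).

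Of 17 genes of the tricarboxylic acid (TCA) cycle, 4 were called lower and 1 higher (Idh3g, 0.39, not called without vehicle replicate 1 or 3 or Dex replicate 1 or 3, at 0.33 to 0.37), 29.4% against 24.6% of all genes, and the median was −0.07. Fumarase, Fh1, had 96.7, 126 and 92.1 FPKM with vehicle and 55.1, 45.9 and 55.3 FPKM with Dex (log2 fold change −0.99, standard error 0.13, adjusted p = 3.3e-04). Idh3a (−0.65), Sdhc (−0.59) and Mdh2 (−0.47) fell by less, and Mdh2 lost its call when any vehicle library, Dex replicate 1 or Dex replicate 2 was left out (−0.41 to −0.51). Sdhd, a subunit of succinate dehydrogenase, had 95.4, 99.2 and 95.0 FPKM with vehicle and 119.9, 90.4 and 112 FPKM with Dex (log2 fold change 0.14, standard error 0.13, adjusted p = 0.42), and Suclg1 was not called either (−0.17, 0.33). Of 40 subunits of respiratory complexes I and II, 8 were called lower and none higher, 20% against the 12.8% of all genes called lower and the 24.6% called in either direction, with a median of −0.32 and with 1 to 11 lower over the alternatives. In the other Dex comparisons the median of these subunits was above 0, with 0.22 in libraries labelled AMPKa1-/-, 0.09 with DAMPs and 0.70 with LPS. Ndufa2 (−0.83), Ndufa13 (−0.65) and Ndufa12 (−0.59) were called but lost their calls when Dex replicate 2 or vehicle replicate 2 was left out (−0.68 and −0.70, −0.55 and −0.52, and −0.52 and −0.53), though not in the fit without vehicle replicate 2 and the LPS libraries, and Ndufa6 was not called (0.05). Of 12 mitochondrially encoded genes, 1 was called (mt-Nd1, −0.46, adjusted p = 0.05). That call held in 6 of 21 alternatives and was lost, among others, under the replicate block, with quantile normalization (−0.20), with the exon-length trend removed (−0.35), and without vehicle replicate 2 (−0.41), vehicle replicate 3 (−0.40), Dex replicate 2 (−0.41) or Dex replicate 3 (−0.40). Likewise, of 39 cytosolic ribosomal protein genes 1 was called (Rpl10a, −0.50, not called with quantile normalization at −0.23, with libraries centred on one median at −0.59, with no filter, without moderation, or without vehicle replicate 1 or 2 or Dex replicate 2 at −0.39 to −0.50). Among 10 genes of mitochondrial fission and fusion, the outer membrane fusion gene Mfn1 rose (log2 fold change 0.62, standard error 0.12, adjusted p = 0.003) and Fis1 fell (−0.51, not called without vehicle replicate 1 or 2 or Dex replicate 2, at −0.41 to −0.51). Dnm1l (0.01), Opa1 (0.30) and Mfn2 (0.14) were not called.

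Small differences such as these moved with the length of the gene. With the genes tested sorted by exon length into 5 groups of about 2270, the median log2 fold change went from −0.12 for the shortest (up to 2154 bases) to 0.29 for the longest (from 7361 bases). The shortest group held 176 genes called higher and 397 lower, the longest 370 and 134. Against the vehicle mean, the median of the longest group was 0.06, −0.16 and 0.11 in the vehicle libraries and 0.29, 0.42 and 0.17 in the Dex libraries. Subunits of complex I and ribosomal proteins are mostly short, and Ncoa1, Ncoa2, Clock and Rora are long. The trend was not shared by the other Dex comparisons, in which the longest group had medians of −0.17 (AMPKa1-/-), −0.12 (LPS) and 0.02 (DAMPs). With the trend removed from each library, 3429 genes were called, 1449 higher and 1980 lower, 2589 of them called in the same direction as before. The medians of the class II, interferon, glycolysis and classic target lists were then −1.85, −0.92, −0.94 and 0.94. Of the lists with small medians, the TCA cycle went from −0.07 to −0.18, complexes I and II from −0.32 to −0.26, fission and fusion from 0.11 to −0.02 and the AMPK list from 0.26 to 0.06. The source of the trend was not tested.

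**Figure D4:**
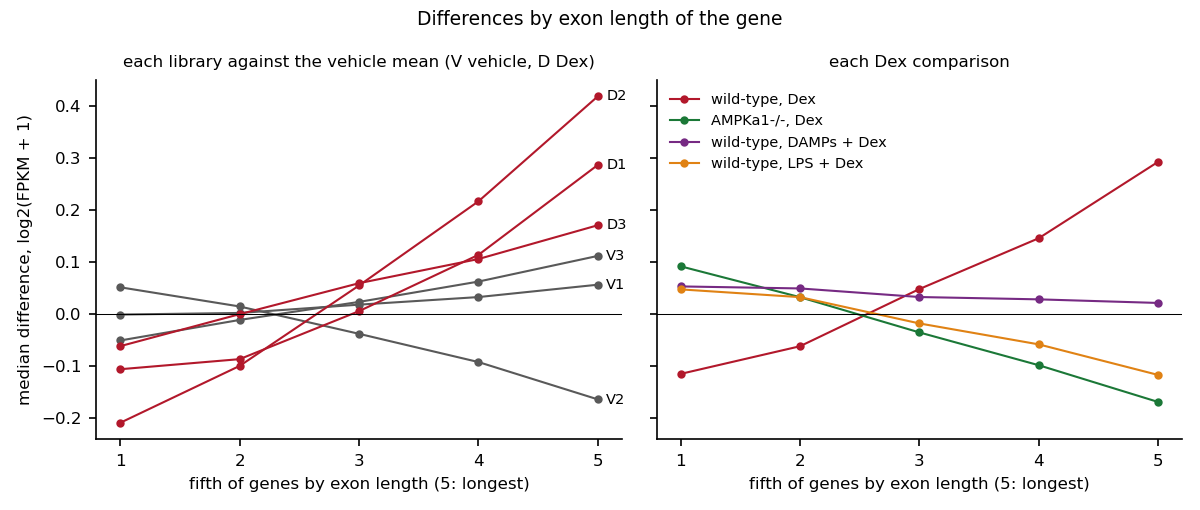
Median difference in log2(FPKM + 1) of genes sorted by exon length into 5 equal groups, shortest at 1. On the left, each wild-type library against the mean of the vehicle libraries, with vehicle in grey (V1 to V3) and Dex in red (D1 to D3). On the right, the 4 Dex comparisons. The wild-type Dex line rises from −0.12 to 0.29 and the lines of the other comparisons are flat or fall.

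Lipid and redox genes changed by member. Lpl, the lipase that frees fatty acids from triglycerides, fell from 1519, 1178 and 1737 FPKM to 122, 315 and 199 FPKM (log2 fold change −2.88, standard error 0.35, adjusted p = 1.9e-04), and the lysosomal lipase Lipa fell (−1.78). Fabp4, a fatty acid carrier, rose from 40.4, 16.1 and 36.9 FPKM to 102, 95.4 and 109 FPKM (1.79). Over the list of lipid efflux and storage 5 of 17 were called higher and 4 lower (52.9%, against 24.6% of all genes). Of 24 sphingolipid genes 7 rose, led by Galc (1.35), Ugcg (1.18) and Sgms1 (1.10), and 2 fell (37.5%). Sterol and fatty acid synthesis gave 1 call in 25 (Mvd, 1.04) and fatty acid oxidation 3 higher, Acadl among them (0.72), and 1 lower in 20 (20%), both below the share of all genes. The plasma glutathione peroxidase Gpx3 rose from 19.4, 16.1 and 14.6 FPKM to 182, 163 and 168 FPKM (log2 fold change 3.29, standard error 0.16, adjusted p = 3.6e-07). The peroxiredoxin Prdx1 fell, with 4532, 2804 and 4160.0 FPKM with vehicle and 1135, 886 and 1095 FPKM with Dex (log2 fold change −1.86, standard error 0.21, adjusted p = 1.0e-04), and so did Srxn1, which restores oxidised peroxiredoxins (−2.2), whereas Prdx5 was not called (−0.23). In all 2 of 31 glutathione and antioxidant genes rose and 8 fell (32.3%, against 24.6% of all genes). The glutathione transferase Gstt3 had 5.16, 6.94 and 5.90 FPKM with vehicle and 5.27, 7.77 and 5.60 FPKM with Dex and was not called (0.03, adjusted p = 0.92).

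Glul, which makes glutamine, had 673, 763 and 632 FPKM with vehicle and 2384, 2298 and 2578 FPKM with Dex (log2 fold change 1.81, standard error 0.13, adjusted p = 5.4e-06), while Psat1 of serine synthesis (−1.76) and Asns, the asparagine synthetase (−1.43), fell. That list had 2 higher and 5 lower of 24, 29.2% against 24.6% of all genes. Tfrc, the transferrin receptor, had 57.7, 87.4 and 94.5 FPKM with vehicle and 14.4, 18.8 and 15.9 FPKM with Dex (log2 fold change −2.2, standard error 0.23, adjusted p = 7.6e-05), and the endosomal reductase Steap3 fell with it (−1.15). Of 15 iron and metal genes 3 were called higher (Hp, Mt2 and Hmox1) and 4 lower (46.7%). Of 32 lysosomal genes 7 were called higher and 7 lower (43.8%), such as the protease Ctsc (−1.25). Among AMPK subunits and upstream kinases, 1 of 10 was called, the regulatory subunit Prkag2 (log2 fold change 1.07, standard error 0.21, adjusted p = 0.0036). Prkaa1, the catalytic α1 subunit, had 15.9, 11.8 and 15.3 FPKM with vehicle and 26.1, 23.2 and 19.1 FPKM with Dex and was not called (0.63, adjusted p = 0.1), though it was called under the replicate block, with only the groups compared, without LPS + Dex replicate 1 or 3, and without vehicle replicate 2 and the LPS libraries (0.51). Acod1, the enzyme of itaconate synthesis, had 1.43, 1.50 and 2.71 FPKM with vehicle and 0.143, 0.123 and 0.444 FPKM with Dex (−1.20, and −2.62 with a pseudocount of 0.1), a call that was lost without Dex replicate 1 (−1.15) or Dex replicate 2 (−1.14).

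An exact pair of AGAACA facing each other across 3 bases, the perfect form of the glucocorticoid response element, was in none of the 8598 promoter windows. Elements that differ from it were not searched for. A single AGAACA on either strand was in 11.9% of all windows, in 13% of those of genes called higher and in 11.5% of those of genes called lower. It was in 11 of 54 windows of genes called higher by at least 2 (20.4%) and in 5 of 66 of genes called lower by at least 2 (7.58%). These shares are a description and were not tested.

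The response was then compared with that of cells labelled AMPKa1-/-. Prkaa1 does not separate these libraries from wild-type: it had 14.8, 16.5 and 15.4 FPKM with vehicle and 21.5, 14.0 and 20.4 FPKM with Dex in the libraries labelled AMPKa1-/-. A deletion of part of the gene can leave its RNA in place, and which part was deleted is not given in the sources used here. In these 6 separate libraries Dex against vehicle called 3604 genes (31.7%). Of the 1334 genes that rose in wild-type, 1217 had a fold change in the same direction (91.2%) and 715 were called (53.6%, against 13.1% of all genes, and 48.1% of the 1486 called higher there), while 3 were called lower. Of the 1458 that fell, 1359 agreed in direction (93.2%) and 980 were called (67.2%, against 18.6% of all genes, and 46.3% of the 2118 called lower), and none was called higher. Their medians were 0.43 and −0.68 here, against 0.77 and −0.77 in the wild-type libraries by which they were chosen. The difference between the responses, tested as an interaction of genotype and Dex by limma, passed for 3 of 11367 genes (0.0264%), with 3546 at an unadjusted p under 0.05. These were Gda, guanine deaminase (difference −1.45, standard error 0.21, adjusted p = 0.043), Acss1, a mitochondrial acetyl-CoA synthetase (−1.14, standard error 0.15, adjusted p = 0.043), and the integrin Itga5 (−1.04, standard error 0.15, adjusted p = 0.043). The count was 961 without wild-type Dex replicate 3 and 0 without any of the other 11 libraries, and 0 with libraries centred on one median, which moved the median interaction of all genes from −0.12 to 0.06. The fold changes of Fkbp5 (6.45), Ddit4 (6.84), Tsc22d3 (3.98), H2-Aa (−4.68) and Tnf (−3.30) in the libraries labelled AMPKa1-/- stood beside 6.88, 7.31, 3.70, −4.56 and −3.09 in wild-type.

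With DAMPs present, Dex called 2532 genes (22.3%) against DAMPs alone. Here 1304 of the 1334 genes that rose with Dex alone kept their direction (97.8%) and 795 were called (59.6%, against 10.6% of all genes, and 66.0% of the 1205 called higher with DAMPs). Of the 1458 that fell, 1383 kept it (94.9%) and 885 were called (60.7%, against 11.7% of all genes, and 66.7% of 1327). Their medians were 0.56 and −0.63 with DAMPs. No gene was called in the opposite direction. The interaction was called by limma for 0 genes (0%), with 1102 at an unadjusted p under 0.05, and for 1 gene by a linear model without moderation. The genes with the smallest interaction p were Siglec1, a sialic acid receptor raised by interferon, which had 21.4, 30.4 and 27.5 FPKM with vehicle and 26.5, 41.5 and 23.4 FPKM with Dex and a log2 fold change of −1.96 with DAMPs against 0.17 alone, and Hmgn1, H1f0 and Kcne3, whose fold changes were 0.04, 0.74 and 1.15 with DAMPs and −0.76, −0.12 and −0.63 alone.

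With LPS the response to Dex differed for many genes. Of the 1334 genes that rose with Dex alone, 886 kept their direction in LPS + Dex against LPS (66.4%), 412 were also called higher (30.9%, against 13.3% of all genes, and 27.3% of the 1508 called higher there) and 96 were called lower. Of the 1458 that fell, 866 kept their direction (59.4%), 440 were called lower (30.2%, against 13.3% of all genes, and 29.1% of 1511) and 200 higher. The interaction of LPS and Dex was called for 2695 genes (23.7%), which include 484 of the genes that rose and 780 of those that fell with Dex alone. The interaction contains the values by which these genes were chosen, so these counts are a description. LPS alone was represented by replicates 2 and 3, and leaving out LPS replicate 2 lowered the count to 1507. Centring libraries on one median moved the median interaction of all genes from −0.09 to 0.05. Among the fallers Rgs2 changed by 3.48 with LPS (difference 4.78, standard error 0.26, adjusted p = 5.1e-06), and the calcium-binding annexin gene Anxa2 by 1.90 against −1.44 alone (difference 3.34, standard error 0.19, adjusted p = 5.1e-06). The interferon-induced gene Ifi44l fell with LPS as well, with −5.27 against −1.17 alone, and the carbonic anhydrase Car13 was not called with Dex alone (0.00) but fell with LPS (−3.38). Fkbp5 (5.55), Tsc22d3 (5.91) and Dusp1 (2.68) rose with LPS too, and the falls of H2-Aa (−0.89) and Ccnd1 (0.56) seen with Dex alone were not called there (adjusted p = 0.45 and 0.2).

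**Figure D5:**
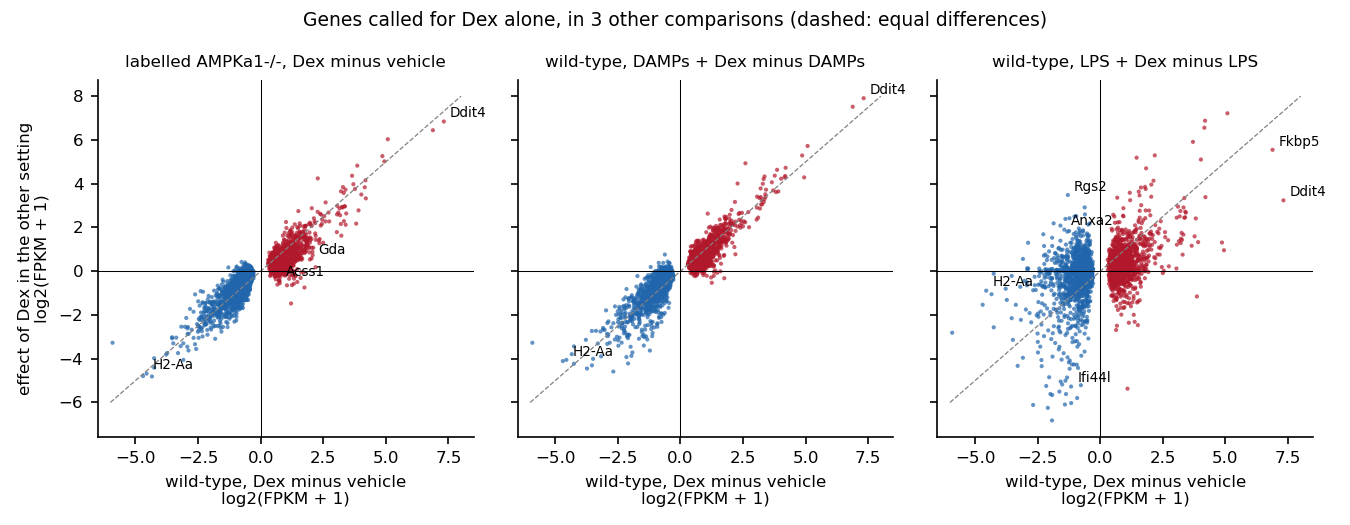
Genes called for Dex alone in wild-type (1334 higher in red, 1458 lower in blue). The x axis is the Dex minus vehicle difference in wild-type and the y axis the effect of Dex in 3 other comparisons, all in log2(FPKM + 1). The dashed line marks equal differences. Medians of the red and blue points are 0.43 and −0.68 in libraries labelled AMPKa1-/- and 0.56 and −0.63 with DAMPs, smaller than the 0.77 and −0.77 on the x axis, and with LPS points spread above and below 0.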

How the data were processed

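RNA from BMDMs was sequenced, and the authors deposited 1 table of FPKM per gene and library. Per the submitters' processing notes, which give no roles, Bowtie2 2.2.3, TopHat2 2.0.12, HTSeq 0.6.1 and GRCm38 (mm10) were used. Fragment totals were recovered from the steps between low FPKM values. Only 58.0 to 61.6% of the genes below 10 fragments then gave a whole number to within 0.001, too few for a count test. Genes with a mean of at least 1 FPKM over the 6 libraries were tested on log2(FPKM + 1) with limma 3.58.1 (trended moderation, R 4.3.3) and Benjamini-Hochberg adjustment at 0.05, over the 11 wild-type libraries with vehicle, Dex, LPS and LPS + Dex, which share 1 estimate of the spread. Differences between responses were interaction terms over 11 or 12 libraries. All adjusted p values in the text are limma's. Since FPKM scales each library to its total, a few strong genes can shift the others. The fit was checked on simulated data with independent noise and changes in few genes, unlike these libraries, in which 24.6% of genes were called. It recovered 13.2% of changes of 0.5, 63.6% of changes of 1 and 98.5% of changes of 2. Of its calls, 5.69% were false.

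Members and gene lists were chosen with earlier results of these data known. The text names the 12 largest rises and falls with separate groups and an established symbol, up to 4 genes of each list with the largest change at an unadjusted p under 0.05, all classic targets and clock genes, genes that the study discusses, the 4 smallest p of each interaction and the leading gene of each marker list. Further genes and the promoter letters were chosen after their values were seen. Across all genes tested, same-numbered libraries did not deviate together (correlations 0.064, −0.12 and −0.19), so numbers were not taken as pairs. Such correlations cannot decide pairing for single genes. For H2-Aa, H2-Ab1, H2-Eb1 and H2-DMb1, replicate 2 was the lowest library of both groups. Alternatives covered the libraries fitted, pseudocount, filter, scaling, moderation, the replicate block and leaving out each library, plus the exon-length trend and a fit without vehicle replicate 2 and LPS libraries, both added after seeing the data. Promoter windows came from RefSeq's GRCm38 table, which matched 8598 of the genes tested. In all 23 libraries were used, and the other 12 were not used here. Some genes are not reported here.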

Additional observations from a re-analysis of the deposited data

Results flagged for a closer look

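The effect of Dex differed between the libraries labelled AMPKa1-/- and wild-type for 3 genes, as tested by the interaction of genotype and Dex in limma. The differences in log2 fold change were −1.14 for Acss1, −1.45 for Gda and −1.04 for Itga5, each with an adjusted p = 0.043. Acss1 and Gda rose in wild-type (0.75 and 2.04) and had −0.39 and 0.59 in the libraries labelled AMPKa1-/-. None of the 3 was among the 1 gene called under the replicate block, the 2 called without moderation or the 4 called with no filter on low values. The call of Acss1 for Dex alone was lost when any vehicle or Dex library was left out (0.63 to 0.81).

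The effect of Dex with LPS differed from that of Dex alone for 2695 genes by the same kind of test. The 4 genes with the smallest p among those with a symbol were Rgs2 (4.78), Ifi44l (−4.11), Car13 (−3.38) and Anxa2 (3.34), given as the difference in log2 fold change.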

How the results depend on the processing

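For Dex alone, the count of 2792 genes ranged from 1680 (without Dex replicate 2) to 3686 (without LPS + Dex replicate 3) when single libraries were left out, and from 2228 to 3852 under the other alternatives. The replicate block gave 2885 genes. Of 190 genes taken by the naming rule and run under these alternatives, 146 were called, of which 120 kept call and direction in every one that tested them and 26 lost the call in at least 1. Of 60 further genes named in the text, 47 were called, of which 32 kept and 15 lost the call. None reversed. The genotype interaction, 3 genes, came to 0 with median centring, 0 with quantile normalization, 0 with the exon-length trend removed, 1 with the replicate block (a gene other than these 3), and 0 to 961 when single libraries were left out, with 961 without wild-type Dex replicate 3. The LPS interaction ranged from 1507 (without LPS replicate 2) to 3864 (without LPS + Dex replicate 1) around 2695, with 3052 under the replicate block. The DAMPs interaction, 0 genes, came to 4 with no filter and 1 without moderation. The causes were not tested. With 3 libraries a group and no counts, small changes may have been missed, and a gene not called is not shown to be level. Every result rests on libraries whose source animals the labels do not give, and vehicle replicate 2 stood apart from its group.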

Other observations

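The largest differences in abundance lay in genes other than those with the largest folds (chosen here after their values were seen). Apolipoprotein E, which carries lipid out of macrophages, had 5673, 3762 and 4332 FPKM with vehicle and 8025, 8268 and 11844 FPKM with Dex for Apoe (log2 fold change 1.03, standard error 0.30, adjusted p = 0.03), with no overlap between the groups. The call was lost without vehicle replicate 2 or 3 or any 1 of the Dex libraries, at log2 fold changes of 0.85 to 1.13. Selenop, a secreted selenium carrier, had 3695, 3943 and 3141 FPKM with vehicle and 7665, 7548 and 8102 FPKM with Dex (log2 fold change 1.12, standard error 0.16, adjusted p = 6.5e-04). Psap, the precursor of the saposins that help to break down sphingolipids, had 4174, 4164 and 4449 FPKM with vehicle and 5217, 6744 and 7330.5 FPKM with Dex (0.58, adjusted p = 0.026 by limma), a call lost without any 1 of the vehicle libraries or Dex replicate 2 or 3 (0.48 to 0.61). Hmox1, which breaks down haem, went from 1000.2, 729.6 and 886 FPKM to 1942, 1675 and 2104 FPKM (1.13), and Plin2, the coat protein of lipid droplets, from 1311, 1434 and 1018 FPKM to 2673, 2286 and 2261 FPKM (0.95). Saa3, an acute-phase apolipoprotein, varied most among them, with 58.8, 108 and 239.8 FPKM with vehicle and 683, 325 and 1546 FPKM with Dex (log2 fold change 2.59, standard error 0.56, adjusted p = 0.0067).

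Among abundant genes that fell, Ftl1, the ferritin light chain, had 17819, 21776 and 17316 FPKM with vehicle and 11699, 10594 and 12593 FPKM with Dex (log2 fold change −0.70, standard error 0.21, adjusted p = 0.031), and reads of its many pseudogene copies may be shared. Its call was lost when any single vehicle or Dex library was left out (−0.60 to −0.76). Quantile normalization gives the same rank the same value in every library. The fold change of 0 for Ftl1 under it therefore reflects an unchanged rank and does not bear on the FPKM difference. Actb had 2445, 3375 and 3089 FPKM with vehicle and 1199.7, 1531 and 1838 FPKM with Dex (log2 fold change −0.97, standard error 0.21, adjusted p = 0.0078), the actin-sequestering peptide gene Tmsb4x had 4828, 5991 and 4312 FPKM with vehicle and 3062, 2552 and 3165 FPKM with Dex (−0.78, adjusted p = 0.0092), and Cfl1, which severs actin filaments, went from 1261, 1725 and 1459 FPKM to 773, 641 and 796 FPKM (−1.0). The galectins Lgals3 (−0.83, adjusted p = 0.0012) and Lgals1 (−1.50, 2.2e-04) were lower in every Dex library than in every vehicle library.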
